A study of Homo sapiens with 54 samples.

Results

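LIN28B, HMGA2, IGF2BP1, IGF2BP2 and IGF2BP3 are 5 genes of the fetal and embryonic RNA programme, chosen by name, and all 5 were found among the 58735 genes of the bulk RNA table. They were followed in macrophages grown from H1, a human embryonic stem cell line, either on a 3D porous microscaffold or in 2D culture. The bulk data hold 32 libraries in 11 groups, all of H1 cells labelled as macrophages. At day 12 there were 4 libraries of the 2D protocol and 4 of the 3D protocol. The 3D protocol was also sampled at days 16, 19 and 23, each in 3 libraries without and 3 libraries with FBS (fetal bovine serum) in their label. Another 2 libraries each carried the label SP6A, SP14 or Ecoli, with no day given, and what SP6A and SP14 stand for is not explained. Single cells of the 3D protocol came from 1 library each at days 7, 9 and 12. The labels do not say whether replicates were separate cultures, so the p-values below measure the spread between these libraries, which may be technical. The series lists 54 samples in all, and its 19 chromatin samples were not analysed here.

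LIN28B is an RNA-binding protein that holds back the maturation of let-7, a family of microRNAs that rises as tissues mature. Its messenger RNA, that of HMGA2, a protein that bends DNA and opens chromatin, and those of the IGF2BP proteins are themselves classic targets of let-7, so the 5 genes form a loop in which high LIN28B goes with low let-7 and high targets. IGF2BP1, IGF2BP2 and IGF2BP3 bind messenger RNAs such as those of IGF2 and MYC and govern their stability and transport. In blood, the LIN28B and HMGA2 axis is known for marking fetal as opposed to adult stem cells, and IGF2BP2 for staying on in adult tissue longer than its relatives.

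The let-7 family is shown here by sequence only, and no let-7 site was searched for in the 5 genes. RefSeq (GRCh38.p14) listed 11 mature human microRNAs that share the let-7 seed, the stretch from base 2 to base 8 that pairs with a target. These 4 are printed 5′ to 3′ with the seed in capitals, to show that the seed stays the same while later bases differ.
hsa-let-7a-5p: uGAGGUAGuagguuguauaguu
hsa-let-7e-5p: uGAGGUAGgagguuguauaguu
hsa-let-7i-5p: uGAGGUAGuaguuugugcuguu
hsa-miR-98-5p: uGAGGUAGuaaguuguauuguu

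LIN28 proteins are known to grip the GGAG letters in the loop of let-7 hairpins. Of the 13 hairpins of this family with a sequence, 9 held GGAG between their arms and 4 did not. The hairpins below give 1 of each kind, with GGAG in capitals where it was found. MIRLET7A1 lies at chr9:94175957-94176036 on the plus strand and MIRLET7A3 at chr22:46112749-46112822 on the plus strand.
MIRLET7A1: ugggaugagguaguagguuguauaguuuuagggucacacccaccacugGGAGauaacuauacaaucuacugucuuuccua
MIRLET7A3: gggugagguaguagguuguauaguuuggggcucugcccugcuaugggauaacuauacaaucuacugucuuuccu

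LIN28B lies at chr6:104937026-105083332, HMGA2 at chr12:65824460-65966291, IGF2BP1 at chr17:48996558-49056145, IGF2BP2 at chr3:185643130-185825042 and IGF2BP3 at chr7:23310209-23470491 in RefSeq's GRCh38.p14, all as protein-coding genes. The 250 bases before each start of LIN28B, IGF2BP2 and IGF2BP3 in the promoter table were searched, with HMGA2 and IGF2BP1 not searched, for CACGTG, the E-box that MYC is known to bind, which reads the same on both strands. The motif stood in 6.34% of 35116 such windows. It was found 1 time before the second LIN28B start (chr6:104956857-104957106, plus strand), 2 times before the IGF2BP3 start (chr7:23470492-23470741, minus strand), and not before the first LIN28B start or the 2 IGF2BP2 starts. The windows that hold it are printed with the motif in capitals, and a match of letters is no evidence of binding.
LIN28B, second start: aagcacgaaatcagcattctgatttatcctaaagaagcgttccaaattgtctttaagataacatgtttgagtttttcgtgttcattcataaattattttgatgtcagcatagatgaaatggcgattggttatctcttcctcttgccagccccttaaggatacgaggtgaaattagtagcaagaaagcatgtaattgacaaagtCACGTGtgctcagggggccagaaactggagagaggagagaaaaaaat
IGF2BP3: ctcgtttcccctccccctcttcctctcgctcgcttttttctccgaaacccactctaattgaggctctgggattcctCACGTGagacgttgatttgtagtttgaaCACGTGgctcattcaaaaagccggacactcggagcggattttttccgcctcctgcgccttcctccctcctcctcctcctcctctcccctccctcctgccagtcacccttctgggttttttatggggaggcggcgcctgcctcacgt

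Bulk values are TPM, transcripts scaled to a fixed library total, that is a share of the library's RNA per unit of gene length. All 12 macrophage markers were detected in every group, with summed levels between 9736 and 23277 TPM, so the markers of the labelled cell type were present. Erythroid markers summed to between 3427 and 4406 TPM in the 2D libraries, between 27.7 and 1724.5 TPM in the 3D libraries of day 12, at most 56.1 TPM at days 16 to 23, and between 359 and 390 TPM in SP6A and SP14. The E. coli libraries stood apart from the others: 7954 and 8103 genes reached 1 TPM in them, against 11862 to 13257 in all other libraries, and the 2 correlated with each other at r = 0.657 across genes. Read depth is unknown for TPM. In bulk RNA, fewer cells of a type and less RNA per cell cannot be told apart.

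Between the 3D and 2D protocols at day 12, IGF2BP2 was the only one of the 5 genes to pass in limma. It was lower in 3D. IGF2BP2 was at 23.9, 5.33, 22.6 and 26.7 TPM in the 2D libraries and at 3.64, 7.04, 5.38 and 2.48 TPM in the 3D libraries. Of the 2D libraries, 3 lay far above every 3D library, and replicate 2 lay inside the 3D range, so the groups overlapped. The mean went from 19.6 ± 9.68 TPM (SD, n = 4) to 4.64 ± 2.00 TPM (SD, n = 4). The log2 change was -1.74 (SE 0.467, limma, adjusted p = 0.0142). An exact two-sided permutation test of the same 8 values gave p = 0.0857, where 4 against 4 allows no p below 0.0286. Of all 13131 genes tested, 38.7% passed the same threshold, and 25.2% passed it downward, so 1 gene of 5 is no larger a share than the background. The median gene changed by -0.21 on the log2 scale. Summed levels of some markers of other cells were higher in 2D than in 3D. Megakaryocyte markers summed to 720 to 1246 against 21.0 to 47.5 TPM, and granulocyte markers to 1763 to 3348 against 122 to 261 TPM. Endothelial markers summed to 244 to 279.89 against 71.2 to 131 TPM. Not all endothelial markers went this way: TEK and CLDN5 were at 0 in every 2D library and were detected in 3D. Mesenchymal markers overlapped, at 11.6 to 24.2 against 10.0 to 84.2 TPM. In single cells of day 12, IGF2BP2 was higher in megakaryocyte-like, granulocyte-like, endothelial-like and mesenchymal-like than in macrophage-like cells. The part of such cells in the bulk change was not tested. IGF2BP2-AS1, an antisense gene, averaged 1.81 TPM in 2D and 0.255 TPM in 3D, and LIN28B-AS1 had group means between 0 and 2.76 TPM. Whether counting used strand is not given, so reads of IGF2BP2 and LIN28B and of these partners cannot be told apart.

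The other 4 genes had overlapping values in the 2D and 3D libraries of day 12. LIN28B was at 5.59, 6.98, 4.85 and 1.76 TPM in 2D and at 6.15, 3.94, 4.42 and 5.88 TPM in 3D (log2 change 0.16, 95% interval -0.59 to 0.91, adjusted p = 0.74). HMGA2 was at 9.09, 4.56, 4.72 and 4.22 TPM in 2D and at 5.42, 4.46, 7.15 and 4.13 TPM in 3D. Its change was -0.05 (95% interval -0.67 to 0.57, adjusted p = 0.908), and it turned to 0.11 under median-ratio scaling. These intervals leave room for a change of either sign in both genes.

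IGF2BP1 was at 20.03, 15.5, 17.2 and 19.5 TPM in 2D and at 11.7, 12.0, 18.0 and 14.5 TPM in 3D. Of the 3D libraries, 3 lay below every 2D library. The change of -0.35 (95% interval -0.77 to 0.06) did not pass (limma, adjusted p = 0.164). The exact permutation test gave p = 0.0857 for IGF2BP1, the same as for IGF2BP2. IGF2BP3 was at 2.84, 7.36, 7.48 and 4.31 TPM in 2D and at 4.80, 10.1, 4.32 and 9.26 TPM in 3D (change 0.32, 95% interval -0.46 to 1.10, adjusted p = 0.498). HMGA1, the close relative of HMGA2, had a mean of 665 ± 36.1 TPM in 2D and 336 ± 162 TPM in 3D (SD, n = 4) and fell by 1.20 on the log2 scale (adjusted p = 0.0431). LIN28A, the relative of LIN28B that marks pluripotent cells, averaged 0.08 TPM in 2D and 0.27 TPM in 3D.

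**Figure D1:**
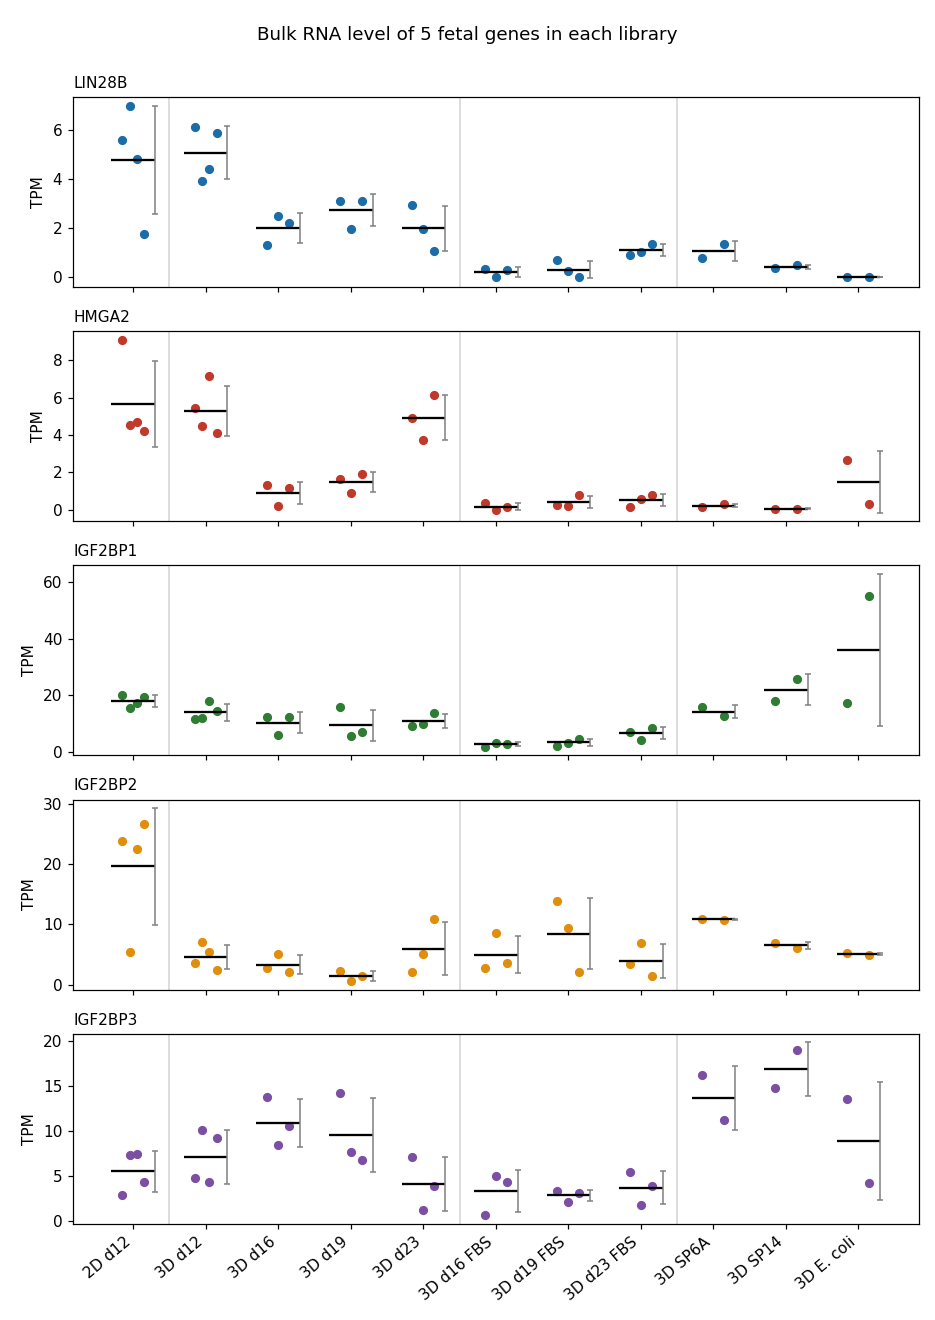
Level of each gene (TPM) in each of the 32 bulk libraries, with 11 groups along the horizontal axis; points are libraries, black lines are group means and grey bars are 1 SD. IGF2BP2 is highest in 3 of the 4 libraries of 2D day 12, LIN28B and HMGA2 are highest at day 12, and IGF2BP1 is lowest in the 3 FBS groups.

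Later days of the 3D protocol had less LIN28B than day 12. LIN28B was at 1.34, 2.51 and 2.22 TPM at day 16, at 3.13, 1.98 and 3.10 TPM at day 19, and at 2.94, 1.99 and 1.07 TPM at day 23. All 9 values lay below the lowest 3D library of day 12, which was at 3.94 TPM. LIN28B fell by 1.02 on the log2 scale at day 16 (SE 0.296, adjusted p = 0.019) and by 1.05 at day 23 (SE 0.296, adjusted p = 0.0105). The change of -0.71 at day 19 did not pass (adjusted p = 0.138). With a pseudocount of 0.1 the LIN28B calls at day 16 (-1.31, adjusted p = 0.195) and day 23 (-1.39, adjusted p = 0.125) were lost. These comparisons share the day 12 libraries.

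HMGA2 was lower at days 16 and 19 and overlapped day 12 again at day 23. It was at 1.30, 0.21 and 1.14 TPM at day 16 and at 1.66, 0.88 and 1.89 TPM at day 19, below all 4 libraries of day 12. At day 23 it was at 4.93, 3.71 and 6.12 TPM, within or just under the day 12 range of 4.13 to 7.15 TPM. HMGA2 fell by 1.77 at day 16 (SE 0.349, adjusted p = 0.00078) and by 1.34 at day 19 (SE 0.349, adjusted p = 0.0109). With a pseudocount of 0.1 the HMGA2 call at day 19 was lost (-1.81, adjusted p = 0.126). At day 23 the change was -0.08 (95% interval -0.81 to 0.64, adjusted p = 0.903). So 2 of the 5 genes were called at day 16, 1 at day 19 and 1 at day 23, where 16.8%, 12.2% and 25.8% of the 13384 genes tested were called.

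The IGF2BP genes did not pass at any of these days. IGF2BP1 was at 12.5, 6.17 and 12.4 TPM at day 16, at 15.8, 5.63 and 7.25 TPM at day 19, and at 9.19, 9.79 and 13.9 TPM at day 23, overlapping day 12 throughout. IGF2BP2 was at 2.73, 5.07 and 2.05 TPM at day 16, at 2.28, 0.61 and 1.49 TPM at day 19, and at 2.06, 5.04 and 10.9 TPM at day 23. Its 3 libraries of day 19 lay below every library of day 12, with a change of -1.18 (adjusted p = 0.161). IGF2BP3 was at 13.8, 8.40 and 10.5 TPM at day 16, at 14.2, 7.69 and 6.73 TPM at day 19, and at 7.12, 1.16 and 3.91 TPM at day 23, with changes of 0.60, 0.39 and -0.80 (adjusted p = 0.458, 0.712 and 0.245).

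Genes of the cell cycle moved in the same comparisons. Of 20 genes of the G2 and M phases, 17 fell at day 16, 0 at day 19 and 16 at day 23, with median changes of -2.61, -0.47 and -1.86 against 0.18, 0.04 and -0.10 over all genes. Their summed level was 799.98 to 979.93 TPM at day 12, 67.3 to 142 TPM at day 16, 483 to 571 TPM at day 19 and 217 to 274 TPM at day 23, so all 3 later days lay below day 12. At day 23 HMGA2 overlapped day 12 while these genes were low. Erythroid markers fell too, 4 of 5 tested at each of the 3 days. Mesenchymal markers summed to 10.03 to 84.16 TPM at day 12. They summed to at most 7.92 TPM at day 16, at most 9.98 TPM at day 19 and 10.32 to 14.26 TPM at day 23. In single cells of day 12, HMGA2 was lower in erythroid-like and higher in mesenchymal-like than in macrophage-like cells. LIN28B was lower in erythroid-like than in macrophage-like cells and near the same in mesenchymal-like cells. The part of the cell cycle and of these cell types in the LIN28B and HMGA2 values was not tested. Without replicate 2 of day 19, HMGA2 missed the threshold at that day (-1.16, adjusted p = 0.0756), and without replicate 3 of day 23, LIN28B missed it (-0.81, adjusted p = 0.0832). At day 16 LIN28B missed it without replicate 1 of day 16 (-0.84, adjusted p = 0.114) and without replicate 1 (-0.93, adjusted p = 0.0588) or replicate 4 (-0.95, adjusted p = 0.0512) of day 12.

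On average over the 3 days, libraries with FBS had less LIN28B, HMGA2, IGF2BP1 and IGF2BP3 than libraries without it. Averaged over days 16, 19 and 23, LIN28B changed by -1.10 (SE 0.183, adjusted p = 5.83e-05), HMGA2 by -1.14 (SE 0.215, adjusted p = 0.000235), IGF2BP1 by -1.13 (SE 0.231, adjusted p = 0.000529) and IGF2BP3 by -1.02 (SE 0.299, adjusted p = 0.0106). IGF2BP2 did not pass, at 0.56 (95% interval -0.10 to 1.23, adjusted p = 0.185). Thus 4 of the 5 genes fell, where 34.6% of all genes were called and 16% were called downward.

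LIN28B was at 0.36, 0 and 0.29 TPM with FBS at day 16, at 0.71, 0.25 and 0 TPM at day 19, and at 0.93, 1.03 and 1.38 TPM at day 23. The FBS and FBS-free libraries did not overlap at days 16 and 19, and at day 23 they did. LIN28B fell by 1.30 at day 16 (adjusted p = 0.0053) and by 1.52 at day 19 (adjusted p = 0.00107), and its change at day 23 was -0.46 (adjusted p = 0.39). In a fit of only the compared groups the LIN28B calls at days 16 and 19 were lost (adjusted p = 0.109 and 0.0637). HMGA2 was at 0.37, 0 and 0.12 TPM with FBS at day 16, at 0.26, 0.21 and 0.81 TPM at day 19, and at 0.15, 0.60 and 0.79 TPM at day 23. At day 23 each FBS library lay far below the lowest library without FBS, at 3.71 TPM, and HMGA2 fell by 1.97 (SE 0.373, adjusted p = 0.000669), with 14.1% of all genes called at that day. Its changes at days 16 and 19 were -0.65 and -0.80 (adjusted p = 0.254 and 0.124).

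IGF2BP1 was at 1.93, 3.33 and 3.02 TPM with FBS at day 16, at 2.33, 3.26 and 4.74 TPM at day 19, and at 6.95, 4.44 and 8.60 TPM at day 23. At each of the 3 days, all FBS libraries lay below all libraries without FBS. It fell by 1.56 at day 16 (adjusted p = 0.00796) and by 1.17 at day 19 (adjusted p = 0.0351), and changed by -0.66 at day 23 (adjusted p = 0.315). IGF2BP3 was at 0.65, 4.94 and 4.32 TPM with FBS at day 16, at 3.27, 2.14 and 3.07 TPM at day 19, and at 5.46, 1.78 and 3.88 TPM at day 23. It lay below all FBS-free libraries at days 16 and 19, where it fell by 1.65 (adjusted p = 0.0287) and 1.41 (adjusted p = 0.0483), and it overlapped them at day 23 (0.01, adjusted p = 1).

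IGF2BP2 took another course. With FBS it was at 2.79, 8.51 and 3.58 TPM at day 16, at 13.8, 9.37 and 2.09 TPM at day 19, and at 3.49, 6.95 and 1.39 TPM at day 23. It rose by 1.73 at day 19 (SE 0.557, adjusted p = 0.0256), although replicate 3 with FBS lay inside the FBS-free range of 0.61 to 2.28 TPM, and the rise missed the threshold without replicate 1 (1.26, adjusted p = 0.141) or replicate 2 (1.52, adjusted p = 0.0913) with FBS, or without replicate 2 (1.45, adjusted p = 0.109) or replicate 3 (1.76, adjusted p = 0.0506) without FBS. At day 16, 3 of the 5 genes were called and at day 19 4 were, against 18.5% and 25.5% of all genes. At day 19 the calls of IGF2BP1 and IGF2BP3 were lost in 3 and 6 of the 6 fits that left out 1 of the compared libraries. At day 16 the IGF2BP3 call was lost without replicate 1 with FBS (-1.06, adjusted p = 0.198), and without replicate 1 (-1.48, adjusted p = 0.103) or replicate 3 (-1.66, adjusted p = 0.0722) without FBS.

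A test of whether the FBS change differed between days called 0 of the 5 genes (limma, adjusted p from 0.149 for IGF2BP2 to 0.541 for IGF2BP1), with 13.9% of all genes called. The unadjusted p was below 0.05 for IGF2BP2 (0.0358) and HMGA2 (0.0388). Without replicate 3 of day 19 with FBS, IGF2BP2 was called (adjusted p = 0.0283). The difference between days in these genes is therefore not shown by this test. Beside these values, the share of TPM taken by 3 genes known only by clone names was 12.5% to 21.3% in the FBS-free libraries of days 16 to 23 and 15.7% to 32.3% in the FBS libraries. Of 20 genes of the S phase, 14 fell with FBS on average and 0 rose (median change -1.06 against 0.04 over all genes). Of 20 genes of the G2 and M phases 10 fell on average, but their summed level was not lower with FBS at each day. It was 67.3 to 142 TPM without and 108.5 to 219 TPM with FBS at day 16. At day 19 it was 483 to 571 against 152 to 325 TPM, and at day 23 217 to 274 against 65.0 to 219 TPM. MYC fell with FBS from 17.4 ± 1.47 to 2.38 ± 0.641 TPM at day 16 and from 18.2 ± 5.14 to 1.29 ± 1.23 TPM at day 19 (SD, n = 3 each), and rose from 6.71 ± 1.16 to 13.9 ± 3.51 TPM at day 23 (adjusted p = 7.07e-06, 1.37e-07 and 0.0494). The part of these in the changes of the 5 genes was not tested.

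**Figure D2:**
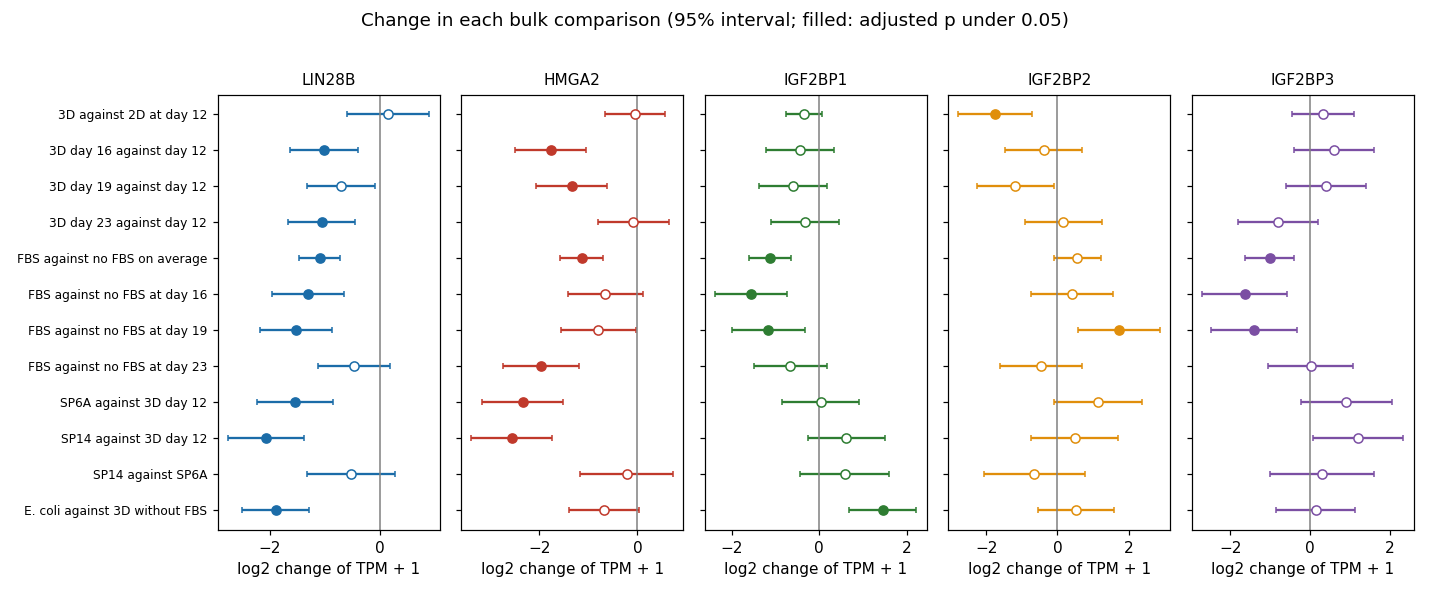
Change of each gene (log2 of TPM + 1) in the 12 bulk comparisons that have 1 difference, with 95% intervals; filled points have an adjusted p under 0.05. LIN28B lies below 0 in all but the 3D against 2D comparison, and IGF2BP1 and IGF2BP2 are the genes with filled points on both sides of 0.

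Beside 3D day 12, the SP6A and SP14 libraries kept the IGF2BP genes and had little LIN28B and HMGA2. LIN28B was at 0.80 and 1.36 TPM in SP6A and at 0.37 and 0.50 TPM in SP14. HMGA2 was at 0.16 and 0.28 TPM in SP6A and at 0.03 and 0.06 TPM in SP14. All these values lay below the whole 3D range of day 12. LIN28B in SP6A overlapped day 23 without FBS (1.07 to 2.94 TPM), and HMGA2 in SP6A overlapped day 16 without FBS (0.21 to 1.30 TPM). In SP14, LIN28B lay within the range of day 19 with FBS (0 to 0.71 TPM). HMGA2 in SP14 lay within that of day 16 with FBS (0 to 0.37 TPM). As SP6A and SP14 carry no day, a difference by day and a difference by label cannot be told apart. Against 3D day 12, HMGA2 fell by 2.34 (SE 0.396, adjusted p = 7.84e-05) in SP6A and by 2.57 (SE 0.396, adjusted p = 2.15e-05) in SP14, and LIN28B by 1.55 (SE 0.336, adjusted p = 0.00115) and 2.07 (SE 0.336, adjusted p = 4.06e-05). In each comparison 2 of the 5 genes were called, beside 28.2% and 31.2% of all genes.

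IGF2BP1 was at 15.97 and 12.6 TPM in SP6A and at 18.2 and 25.9 TPM in SP14. IGF2BP3 was at 16.2 and 11.2 TPM in SP6A and at 14.8 and 18.97 TPM in SP14, all above the highest 3D library of day 12, at 10.1 TPM. The change of IGF2BP3 did not pass in either (0.91, adjusted p = 0.241, and 1.20, adjusted p = 0.103). IGF2BP2 was at 10.8 and 10.8 TPM in SP6A and at 6.96 and 6.14 TPM in SP14 (changes 1.14 and 0.49, adjusted p = 0.164 and 0.592). With array weights IGF2BP3 passed in SP6A (0.95, adjusted p = 0.0162) and SP14 (1.25, adjusted p = 0.00348), IGF2BP2 passed in SP6A (0.99, adjusted p = 0.0233) and IGF2BP1 in SP14 (0.61, adjusted p = 0.0466). In a fit of only the compared groups IGF2BP2 passed in SP6A (adjusted p = 0.031) and IGF2BP3 in SP14 (adjusted p = 0.025). Between SP14 and SP6A no gene of the 5 passed (limma, adjusted p = 1 for each, lowest unadjusted p = 0.19), where 0.0598% of all genes did. Of the 20 G2 and M phase genes, 1 rose and 1 fell in SP6A (median -0.20) and 1 rose and 0 fell in SP14 (median -0.09). Of the 20 S phase genes, 0 rose and 8 fell in SP6A (median -1.35) and 0 rose and 9 fell in SP14 (median -1.50), against medians of 0.18 and 0.09 over all genes. Their part in the low LIN28B and HMGA2 was not tested.

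In the 2 E. coli libraries, LIN28B was listed at 0 in both. Against the mean of the 4 days without FBS it passed the test (limma, adjusted p = 1.01e-05), and no fold is given against a group at 0. Fewer genes reached 1 TPM in these libraries than in any other, and 10 of 20 G2 and M phase genes were also at 0 in both. Loss of LIN28B RNA and a failure to detect it cannot be told apart. As no day is given, a difference by day cannot be told apart from one by E. coli. With array weights the calls of LIN28B (adjusted p = 0.385) and IGF2BP1 (adjusted p = 0.538) were lost. IGF2BP1 was at 17.2 and 54.9 TPM, the second of which was its highest value in any library, and rose by 1.45 (SE 0.372, adjusted p = 0.00215). Without replicate 2 its change was 0.64 (adjusted p = 0.215). Between the 2 libraries, erythroid markers ran from 0 to 3485 TPM and granulocyte markers from 43.5 to 464 TPM, and their part in the IGF2BP1 value was not tested. HMGA2 was at 2.67 and 0.33 TPM, IGF2BP2 at 5.21 and 4.90 TPM and IGF2BP3 at 13.6 and 4.26 TPM, and none of these passed. So 2 of 5 genes were called where 56.5% of all genes were and the median gene changed by -0.84.

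Across the 11 groups, per unit of length, IGF2BP1 was the most abundant of the 5 genes in 3D at day 12 (14.04 ± 2.90 TPM, SD, n = 4), followed by IGF2BP3 (7.13 ± 3.00), HMGA2 (5.29 ± 1.36), LIN28B (5.10 ± 1.08) and IGF2BP2 (4.64 ± 2.00). By group mean, LIN28B ran from 5.10 TPM in 3D and 4.80 TPM in 2D at day 12, through 2.74, 2.02 and 2.00 TPM at days 19, 16 and 23, 1.11 TPM at day 23 with FBS, 1.08 TPM in SP6A, 0.435 TPM in SP14, and 0.320 and 0.217 TPM at days 19 and 16 with FBS, to 0 with E. coli. In that order the step from SP6A to SP14 was the only one without overlap between neighbours. HMGA2 ran from 5.65 TPM in 2D, 5.29 TPM in 3D at day 12 and 4.92 TPM at day 23 down to at most 1.5 TPM in every other group, and the step below day 23 was the only one without overlap. For IGF2BP1, IGF2BP2 and IGF2BP3, all 10 neighbouring pairs of groups overlapped. IGF2BP1 was highest with E. coli (36.0 ± 26.7 TPM, SD, n = 2) and lowest at day 16 with FBS (2.76 ± 0.735), IGF2BP2 highest in 2D (19.6 ± 9.68) and lowest at day 19 (1.46 ± 0.835), and IGF2BP3 highest in SP14 (16.9 ± 2.97) and lowest at day 19 with FBS (2.83 ± 0.603).

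The genes whose group means most resembled each member were taken by Pearson correlation over the 11 group means of log2(TPM + 1), a description in which the groups share libraries of 1 cell line. LIN28B was most like GINS2 (r = 0.983), NME1 (0.977), PYCR1 (0.972), EEF1AKMT4 (0.971) and POLR3K (0.969). HMGA2 was most like NKG7 (0.946), PRMT5 (0.945), ATP5ME (0.942), CAVIN3 (0.942) and EIF6 (0.936). Among themselves LIN28B and HMGA2 correlated at r = 0.767 and IGF2BP1 and IGF2BP3 at r = 0.671. IGF2BP2 correlated with the other 4 at r = 0.00811 to 0.29. IGF2BP1 was most like VPS72 (0.953), IGF2BP2 most like PRCC (0.921), and IGF2BP3 most like CSNK1A1 (0.962).

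The transcripts listed as hosts of let-7 hairpins had low or scattered values in bulk RNA. MIRLET7BHG, a host transcript of let-7 hairpins, reached a group mean of 0.263 TPM at most. MIRLET7A1HG was listed at 0 in 8 groups, and its means of 8.47, 3.23 and 8.35 TPM at day 19, day 19 with FBS and day 23 with FBS had SDs of 14.7, 5.60 and 14.5 TPM. MIR99AHG ranged between group means of 0.035 TPM with E. coli and 4.42 ± 2.51 TPM (SD, n = 4) in 2D, and MIR100HG between 0 and 2.82 ± 0.939 TPM (SD, n = 3), the latter at day 23 with FBS. In single cells of day 12, MIR99AHG was at 99.8 CPM in macrophage-like and 258 CPM in mesenchymal-like cells. Mature let-7 was not measured.

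The genes that make, cut, tail or load let-7 were listed apart. Between 3D and 2D, 3 of 20 tested rose, 7 fell and 10 did not pass (median change -0.53 against -0.21 over all genes), where 38.7% of all genes were called and 25.2% fell. TUT4 and TUT7, the enzymes that add a uridine tail to pre-let-7 held by LIN28, fell from 29.2 ± 3.06 to 9.50 ± 5.15 TPM (log2 change -1.64, adjusted p = 0.00215) and from 9.86 ± 1.24 to 3.92 ± 1.57 TPM (-1.19, adjusted p = 0.0052). DIS3L2, the nuclease that removes the tailed RNA, fell from 15.4 ± 4.16 to 6.17 ± 2.39 TPM (-1.21, adjusted p = 0.00744, SD, n = 4 in each group). With FBS on average, 5 of 20 rose and 1 fell, where 34.6% of all genes were called, and TUT7 was among those that rose (1.06, adjusted p = 0.000406).

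Of 26 classic let-7 targets other than the 5 genes, 24 were tested between 3D and 2D, and 2 rose, 7 fell and 15 did not pass (median -0.18 against -0.21 over all genes), a share near the 38.7% of all genes called. MYC, the growth regulator, rose from 10.1 ± 3.81 to 26.0 ± 1.77 TPM (1.35, adjusted p = 0.00184) and PRDM1, a repressor of transcription, from 1.33 ± 0.401 to 19.4 ± 2.15 TPM (3.14, adjusted p = 5.96e-06). CCND2 (-1.60, adjusted p = 0.001), CCND1 (-1.07, adjusted p = 0.0067), ARID3A (-1.09, adjusted p = 0.000437) and TRIM71 (-0.92, adjusted p = 0.0268) fell. With FBS on average 5 of 23 rose and 8 fell (median -0.16 against 0.04 over all genes), beside 34.6% of all genes called. CCND1 (-2.16, adjusted p = 1.49e-06) and CDK6 (-1.21, adjusted p = 0.00839), which drive the G1 phase, were among those that fell.

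IGF2, whose RNA the IGF2BP proteins bind, was highest at day 12 of the 3D protocol, while IGF1 was higher at days 16 and 19 than at day 12. IGF2 averaged 15.9 ± 14.2 TPM in 3D and 2.36 ± 0.771 TPM in 2D at day 12 (SD, n = 4 each, log2 change 1.90, adjusted p = 0.0252), and H19, its imprinted neighbour, 19.3 ± 14.2 and 5.94 ± 6.87 TPM. IGF2 was listed at 0 in every library at days 16 and 19, where H19 also was. IGFBP2, a carrier of IGF proteins, fell from 127 ± 15.7 TPM in 2D to 8.47 ± 2.67 TPM in 3D (-3.79, adjusted p = 1.79e-06). IGF1 averaged 7.83 ± 1.93 TPM in 3D at day 12 and 75.5 ± 5.56 TPM at day 16 (3.14, adjusted p = 6.06e-07), and rose with FBS on average (2.89, adjusted p = 3.66e-10). Of 14 genes of this axis that were tested, 4 rose and 2 fell between 3D and 2D, and 5 rose and 1 fell with FBS, where 38.7% and 34.6% of all genes were called.

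The single-cell libraries held 6551, 11292 and 7592 cells after filtering at days 7, 9 and 12, with median depths of 24179, 13032 and 16617 UMIs (unique molecules counted) per cell. They shared between 15 and 21 cell barcodes in each pair of days. The cells fell into 18 clusters, of which 12 were named by marker genes, without use of the 5 genes. With 1 library a day there is no test, and the intervals given cover counting error only. Values are CPM, summed UMIs scaled to a fixed total, and were compared between cell classes for 1 gene at a time.

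HMGA2 differed most between cell classes. At day 12 it was at 50.4 CPM (95% interval 48.7 to 52.1) in 2077 macrophage-like cells, at 236 CPM (232 to 240) in 3743 mesenchymal-like cells and at 248 CPM (235 to 262) in 294 endothelial-like cells. In granulocyte-like cells it was at 28.02 CPM, in mast, basophil or eosinophil-like cells at 17.5 CPM, in megakaryocyte-like cells at 16.7 CPM and in erythroid-like cells at 4.10 CPM (2.39 to 6.56). The low level held for erythroid-like cells at days 7 and 9 as well, at 11.2 and 22.6 CPM. Of macrophage-like cells of day 12, 54.2% held an HMGA2 UMI, at a median depth of 30128 UMIs. Of erythroid-like cells, the class with the lowest level above, 6.22% did, at a median depth of 16281 UMIs. After thinning to 3000 UMIs per cell the shares were 12.2% and 1.74%. An unnamed cluster of 5888 cells led by ACTC1 and BMP10, mostly of days 7 and 9, had the highest level, at 439 CPM at day 7 and 564 CPM at day 9.

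The mesenchymal-like class is the most numerous at day 12, and its genes had UMIs in other classes too. H19 was at 798 CPM there and at 18.7 CPM in macrophage-like cells, and IGF2 at 186 and 2.42 CPM. HMGA2 was at 236 and 50.4 CPM in the same classes. The part of mesenchymal RNA in the macrophage-like values was not tested. Keeping the doublets that Scrublet marked raised HMGA2 to 62.5 CPM and IGF2BP2 to 97.8 CPM in macrophage-like cells. Of the mesenchymal-like cells, 226 at day 12 belonged to a second cluster led by SLC34A2 and SLPI, where HMGA2 was at 60.9 CPM over all days.

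IGF2BP2, like HMGA2, was higher in mesenchymal-like and endothelial-like cells than in blood classes. It was at 80.4 CPM (78.3 to 82.6) in macrophage-like cells of day 12, at 377 CPM (372 to 382) in mesenchymal-like and at 524 CPM (505 to 543) in endothelial-like cells. In the other blood classes of day 12 it lay between 101 CPM (erythroid-like) and 146 CPM (megakaryocyte-like). Macrophage-like cells thus had the lowest IGF2BP2 of the named classes with at least 50 cells at day 12, whereas among the named blood classes they had the highest HMGA2. An unnamed cluster of 536 cells, with CD3D, RUNX3 and LTB among its leading genes, had more HMGA2. Over all days it was at 72.8 CPM there and at 50.5 CPM in macrophage-like cells. Over the 17 combinations of class and day with at least 50 cells, HMGA2 and IGF2BP2 correlated at r = 0.858, a description only, since classes of a day share a library. The genes most like HMGA2 were DNMBP (0.969), CAMSAP2 (0.966), ANXA2 (0.960), SGCB (0.959) and SERINC5 (0.959), and those most like IGF2BP2 were FBLIM1 (0.985), AFDN (0.978), TCF7L1 (0.976), DLGAP4 (0.973) and ZNF791 (0.968).

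LIN28B, IGF2BP1 and IGF2BP3 were more even. LIN28B was at 94.7 CPM (92.4 to 97.1) in macrophage-like and 94.5 CPM (92.0 to 97.1) in mesenchymal-like cells of day 12, at 140 CPM in mast, basophil or eosinophil-like, 125 CPM in granulocyte-like, 68.8 CPM in endothelial-like, 60.0 CPM in erythroid-like and 36.8 CPM in megakaryocyte-like cells. In erythroid-like cells LIN28B was at 113 and 118 CPM at days 7 and 9, and in megakaryocyte-like cells at 128 and 102 CPM, above the day 12 values of the same classes. LIN28A differed more by day: it was at 90.9 CPM in megakaryocyte-like cells at day 7, 37.7 CPM at day 9 and 3.45 CPM at day 12, and at 0.564 CPM in macrophage-like cells of day 12. Megakaryocyte-like cells of day 12 were shallower (median 9698.5 UMIs, against 27201 at day 7) and came mostly from another cluster than those of days 7 and 9. In this class, megakaryocyte markers summed to 994, 4543 and 25833 CPM at days 7, 9 and 12. Erythroid markers summed to more there, at 9420, 19968 and 48377 CPM. A change over days within 1 cell type cannot be told apart from a change of the cells in this class.

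IGF2BP1 was at 94.6 CPM in macrophage-like cells of day 12, 120 CPM in mesenchymal-like, 141 CPM in endothelial-like, 116 CPM in granulocyte-like, 107 CPM in mast, basophil or eosinophil-like, 66.0 CPM in erythroid-like and 50.3 CPM in megakaryocyte-like cells. IGF2BP3 was at 201 CPM (197 to 204) in macrophage-like cells, 225 CPM in granulocyte-like, 179 CPM in mast, basophil or eosinophil-like, 165 CPM in endothelial-like, 152 CPM in mesenchymal-like, 139 CPM in erythroid-like and 109 CPM in megakaryocyte-like cells. In endothelial-like cells IGF2BP3 went from 250 and 254 CPM at days 7 and 9 to 165 CPM at day 12, each from 1 library.

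**Figure D3:**
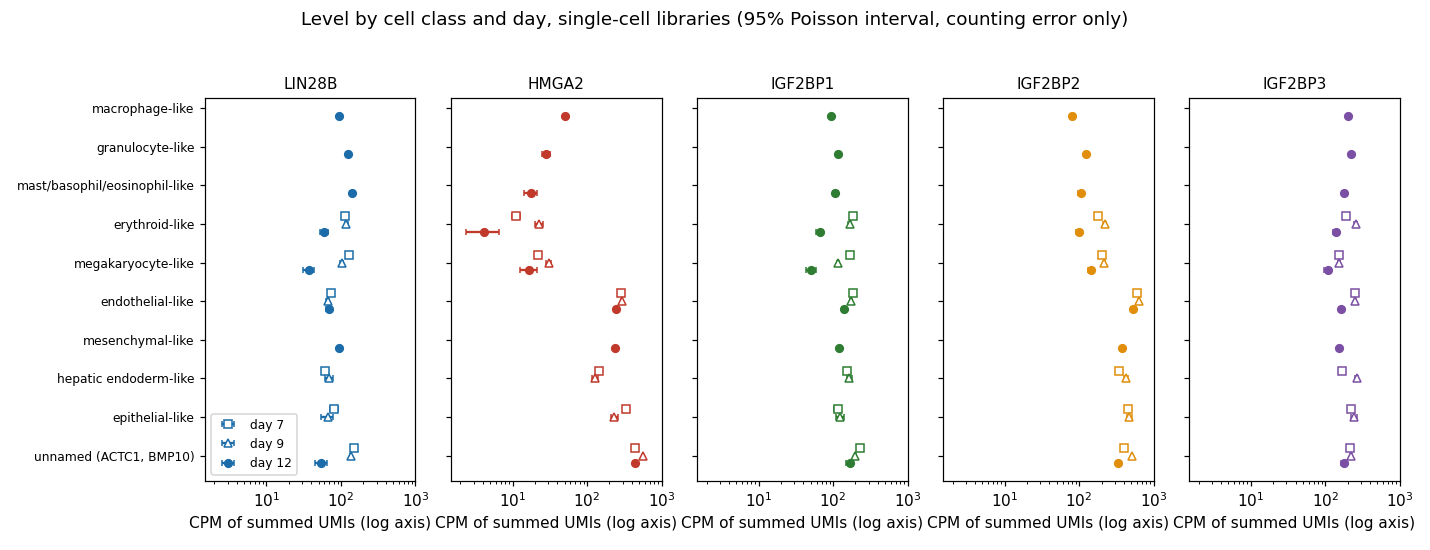
Level of each gene (CPM of summed UMIs, log axis) by cell class, for class and day combinations of at least 50 cells, with 95% Poisson intervals for counting error. HMGA2 spreads from 4.10 CPM in erythroid-like to 564 CPM in the unnamed cluster, while LIN28B and IGF2BP3 differ less between classes.

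Macrophage-like cells formed a cluster led by chemokine genes such as CCL3 and CCL4 and a cluster with MRC1 and CD163 among its leading genes, called CD163-led here. At day 12 LIN28B was higher in the CD163-led cluster in each phase called from S and G2M genes: 131 against 46.4 CPM in G1, 143 against 83.5 CPM in S and 156 against 86.3 CPM in G2M. HMGA2 was at 41.4 against 26.7 CPM in G1, 77.6 against 45.7 CPM in S and 88.2 against 46.8 CPM in G2M. IGF2BP1 and IGF2BP3 were higher in the CD163-led cluster in each phase too, at 98.1 against 72.8 and at 228 against 154 CPM in G1.

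IGF2BP2 was the exception: in G1 it was at 87.4 CPM in the CD163-led and 110 CPM in the chemokine-led cluster, and in S and G2M it was at 93.6 and 71.2 CPM against 64.9 and 53.2 CPM. Over the whole class, cells called G1, S and G2M had LIN28B at 63.6, 105 and 116 CPM, HMGA2 at 29.7, 57.3 and 64.4 CPM, IGF2BP1 at 78.0, 97.1 and 108 CPM, IGF2BP3 at 169, 195 and 235 CPM and IGF2BP2 at 105, 75.4 and 60.8 CPM. LIN28B, HMGA2, IGF2BP1 and IGF2BP3 were thus lowest in G1, and IGF2BP2 was highest there. G1 cells were shallower, at a median of 24073 UMIs against 33542 in S and 38564 in G2M. Of the chemokine-led cells 51.9% (95% exact binomial interval 49.3 to 54.5) were called G1, and of the CD163-led cells 25.9% (22.6 to 29.5).

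**Figure D4:**
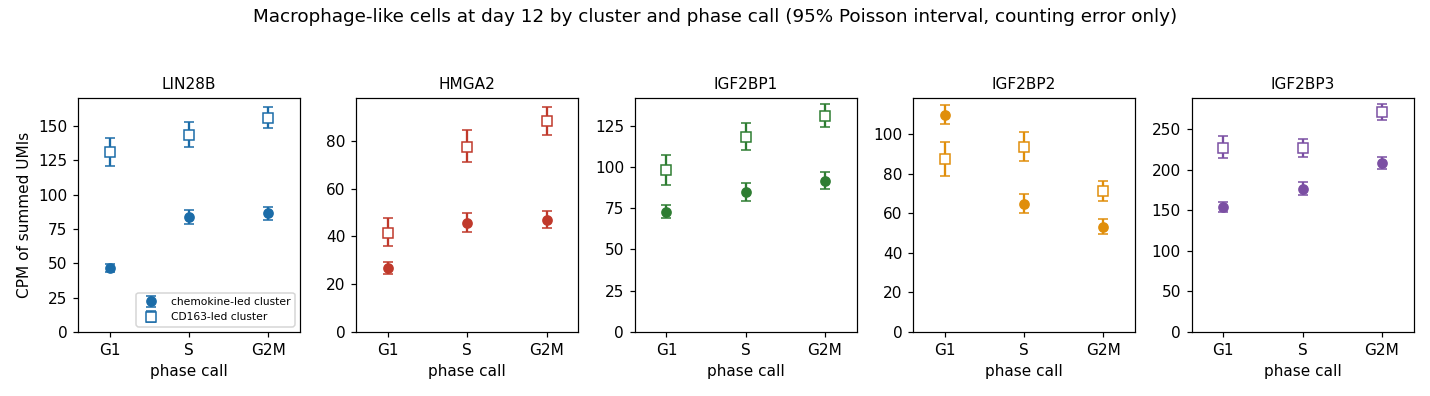
Level of each gene (CPM of summed UMIs) in macrophage-like cells of day 12 by phase call, for the chemokine-led cluster (filled) and the CD163-led cluster (open), with 95% Poisson intervals for counting error. LIN28B is higher in the CD163-led cluster in all 3 phases, and IGF2BP2 is highest in G1 of the chemokine-led cluster, at 110 CPM.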

How the data were processed

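RNA was measured in 32 bulk libraries and 3 single-cell libraries. The bulk table holds TPM, deposited by the authors. No source used here gives the tool behind the TPM, its gene lengths or the genome build. The submitters' processing notes name Trim Galore 0.4.4, HISAT2 and HTSeq 0.11.1. The single-cell matrices hold raw UMI counts deposited by the authors, from Cell Ranger 7.1.0 (days 7 and 9) and 7.0.0 (day 12), per the file headers.

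Bulk tests used limma 3.58.1 in R 4.3.3 on log2(TPM + 1), with a mean-variance trend, genes with a mean of at least 1 TPM and Benjamini-Hochberg adjustment over all genes tested, with 0.05 as the threshold. One fit held the 8 libraries of day 12 and the other the 28 libraries of 3D. A fold on this scale understates the change of low genes. All 5 genes were also tested by exact permutation between 3D and 2D with SciPy 1.17.1.

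Cells with at least 1000 UMIs, 500 genes and at most 15% mitochondrial UMIs were kept, doublets were removed with Scrublet, and cells were clustered by Leiden at resolution 0.5 (Python 3.11.15, scanpy 1.11.5, leidenalg 0.10.2). Clusters were named from marker lists. Intervals are exact at the 95% level. The limma tests were tried on simulated data. Of genes given a log2 change of 1, 17% were recovered between 3D and 2D and 16% between days 23 and 12. At a log2 change of 2, 74% and 62% were recovered. Changes near 1 were thus mostly missed in these simulations. Each simulation gave 100 genes a change of 1 and 100 a change of 2, among 13131 or 13384 genes. In the data, 38.7% and 25.8% of genes were called in these comparisons. The adjustment depends on how many genes change, so the recovered shares cannot be carried over to the data.

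The 5 genes, the gene lists and the E-box search were chosen with earlier results of these data known. Genes named beside the 5 were set by rule: LIN28A, HMGA1, IGF2, H19, MYC, IGF1R, TUT4, TUT7, DIS3L2, DICER1, ARID3A, TRIM71, CCND1, CCND2, CDK6, let-7 hosts, up to 3 genes per described list with the lowest adjusted p, and the 5 most alike in pattern. Alternatives changed the pseudocount, filter, scaling, weights, block and libraries used. The chromatin samples were not analysed here.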

Additional observations from a re-analysis of the deposited data

Results flagged for a closer look

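HMGA2 in the 2D libraries of day 12 had 1 value far from the others. Replicate 1 was at 9.09 TPM and the other 3 libraries were between 4.22 and 4.72 TPM, so the gap to the nearest library took 0.897 of the range of the group. Of the 5 genes in the groups of 4 libraries, 10 sets of values were examined, and chance picks out about 1 in 20. Without that library the HMGA2 change between 3D and 2D was 0.17, against -0.05 with it, and neither passed.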

How the results depend on the processing

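The limma call of IGF2BP2 between 3D and 2D held under each alternative to that fit, while the exact permutation test of the same values did not pass (p = 0.0857). Counts of called genes moved as follows. With a pseudocount of 0.1 the counts were 1 at day 16, 0 at day 19 and 0 at day 23. With a mean of at least 5 TPM, which tests fewer of the 5 genes, they were 0, 0 and 0 at those days, 2 for FBS on average, 0 for FBS at day 23, 0 for SP6A, 0 for SP14 and 1 for E. coli. With array weights they were 4 at day 19, 2 for FBS at day 19, 1 for the interaction, 4 for SP6A, 4 for SP14 and 0 for E. coli. For FBS at day 19 the count was 1 without a filter, 2 without the 3 clone-named genes and 1 in a fit of only the compared groups. Leaving out 1 library gave 1 to 2 at day 16, 0 to 1 at day 19, 0 to 1 at day 23, 1 to 3 for FBS at day 19, 0 to 1 for the interaction and 1 to 3 for E. coli. The causes were not tested.

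Same-numbered libraries showed no sign of deviating together (median correlation -0.00292 over 139 pairs). With so few libraries in each group, this cannot exclude that the numbers pair them. With the replicate number as a block, 1 gene was called at day 16, 3 for FBS at day 19, and IGF2BP2 at day 23 changed by -0.040.

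These changes, none of them called, switched sign. HMGA2 between 3D and 2D was 0.11 with median-ratio scaling (exact permutation p = 0.657), 0.044 without the clone-named genes and -0.18 to 0.17 with 1 library left out. LIN28B there ranged from -0.16 to 0.35. At day 23 HMGA2 was 0.068 without the clone-named genes and -0.23 to 0.071 with 1 library left out, and IGF2BP2 ranged from -0.32 to 0.66. For FBS at day 23, IGF2BP3 was -0.12 with median-ratio scaling, -0.068 with array weights and -0.51 to 0.45 with 1 library left out, and IGF2BP2 ranged from -0.94 to 0.034. For SP6A, IGF2BP1 was -0.24 with median-ratio scaling and ranged from -0.12 to 0.19. For E. coli, IGF2BP3 was -0.0086 without the clone-named genes and ranged from -0.60 to 0.87, and HMGA2 ranged from -1.42 to 0.047, where the call at -1.42 (adjusted p = 0.00657) came without replicate 1. With doublets kept, macrophage-like HMGA2 was 62.5 CPM and IGF2BP2 97.8 CPM.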
